A study of Homo sapiens with 3 samples.

Results

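LMO3, TMEM100, TSHR and RAB11FIP4 are 4 of the 36601 genes counted in OVCAR3 cells, and they are described here across single cells after inhibition of RAC1. They were picked for the largest falls from DMSO to RAC1i, so the size of that fall is a description of the choice and no test of it is given. Which cells still held the transcripts, how that varied with depth, mitochondrial share and cell cycle, and whether the genes were held together, were not used in the choice. OVCAR3 cells are a human ovarian cancer line of the high-grade serous type (HGSOC). Cultures were incubated for 48 hours with DMSO, with 50 μM RAC1i (NSC23766, which blocks activation of the small GTPase RAC1) or with 50 μM RAC1i and 5 μM EZH2i (GSK126, which blocks the histone methyltransferase EZH2), the last named Combo. Both inhibitors were dissolved in DMSO, so all 3 libraries share the solvent. Each condition was 1 library, so no difference between conditions could be tested. Intervals below are 95% intervals for counting error only, and the library with EZH2i alone was not analysed here.

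As background, the products of these genes belong to separate systems. LMO3 is a LIM-only protein without DNA binding of its own that bridges transcription factors, and it is best known in neural cells and neuroblastoma. TMEM100 is a small membrane protein that is induced by BMP signaling through the receptor ALK1 in endothelial cells. TSHR is the G protein-coupled receptor for thyrotropin, which raises cyclic AMP in thyroid follicular cells. RAB11FIP4 binds the GTPase Rab11 and takes part in membrane recycling and cytokinesis.

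On GRCh38 with the annotation GENCODE 44, LMO3 (ENSG00000048540) lies on the minus strand at chr12:16548372-16610594 and TSHR (ENSG00000165409) on the plus strand at chr14:80954989-81146306. RAB11FIP4 (ENSG00000131242) and TMEM100 (ENSG00000166292) share chromosome 17, at chr17:31391675-31538211 on the plus strand and at chr17:55719627-55732121 on the minus strand. Since the genes fell together, their promoters were searched on both strands for 5 motifs, CRE (TGACGTCA), AP-1 (TGANTCA), E-box (CACGTG), GC box (GGGCGG) and TATA box (TATAAA). RefSeq promoter windows of GRCh38.p14, with 250 bases before and 50 after a start site, were matched for LMO3 and TSHR, 2 of the 4 genes. The windows at the canonical starts of LMO3 and TSHR held none of these letters, and 1 of the 5 LMO3 windows held a GC box that began 73 bases before its start (offset -73). Among all 35116 windows of 300 bases, a CRE was found in 1.85%, an AP-1 motif in 7.71%, an E-box in 7.26%, a TATA box in 11.5% and a GC box in 45.0%. The stretches of 3 windows that no annotated exon covers are printed 5′ to 3′ on the strand of the gene, with the GC box in capitals and no other match to mark. They stand at chr12:16606163-16606338, chr12:16605380-16605624 and chr14:80955371-80955430.
LMO3, canonical start: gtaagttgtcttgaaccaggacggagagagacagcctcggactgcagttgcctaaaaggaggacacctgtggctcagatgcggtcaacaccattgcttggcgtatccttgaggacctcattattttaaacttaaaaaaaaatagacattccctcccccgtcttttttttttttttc
LMO3, other start: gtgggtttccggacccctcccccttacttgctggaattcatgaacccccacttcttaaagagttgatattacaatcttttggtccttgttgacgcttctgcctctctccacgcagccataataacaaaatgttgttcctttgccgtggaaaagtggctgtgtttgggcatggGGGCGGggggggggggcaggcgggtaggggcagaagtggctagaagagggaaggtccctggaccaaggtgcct
TSHR, canonical start: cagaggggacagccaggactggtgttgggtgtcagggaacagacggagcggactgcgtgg

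Cells with over 1000 genes, at most 20% mitochondrial UMIs (unique molecular identifiers, which mark captured mRNA molecules) and a complexity over 0.8 were kept, which left 7531 DMSO, 10215 RAC1i and 8239 Combo cells with medians of 26750, 20989 and 24953 UMIs. The median mitochondrial share was 5.60% in DMSO and 1.66% and 1.58% in RAC1i and Combo, so the treated libraries stood apart in this measure. No doublet caller was run and no doublets were removed. Between 18 and 26 kept barcodes of a library were also found in each other library. Of 9 serous ovarian cancer markers, 9 reached 10 UMIs per 1000000 (CPM) in DMSO, with 8 reaching it in RAC1i and 7 in Combo, and summed levels of 3705, 1921 and 2115 CPM. Markers of other cell types that use the 4 genes were low. The endothelial list (PECAM1, VWF, CDH5) summed to at most 1.88 CPM. Of thyroid markers, NKX2-1 was at most at 7.61 CPM, SLC5A5 at 2.81 CPM, FOXE1 at 0.482 CPM and TG at 0.174 CPM in any library. Of neural markers, SNAP25 was at most at 0.540 CPM, and STMN2 and ELAVL4 were at 0 in DMSO. Fibroblast markers summed to at most 5.78 CPM, with COL3A1 at 0 in DMSO and Combo, and leukocyte markers to at most 0.647 CPM, with PTPRC and CD3E at 0 in Combo.

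All 4 genes were present in DMSO and close to absent in both treated libraries. LMO3 was at 62.7 CPM (61.6 to 63.8, from 12483 UMIs) in DMSO, 2.15 CPM (1.97 to 2.35, 505 UMIs) in RAC1i and 1.70 CPM (1.53 to 1.88, 361 UMIs) in Combo. TMEM100 was at 100.5 CPM (99.1 to 102) in DMSO, 3.56 CPM (3.32 to 3.81) in RAC1i and 2.46 CPM (2.26 to 2.68) in Combo. TSHR was at 73.0 CPM (71.8 to 74.2) in DMSO, 2.62 CPM (2.41 to 2.83) in RAC1i and 2.14 CPM (1.95 to 2.34) in Combo. For each of these genes the DMSO level stood far above both treated levels, and the treated levels stood close to each other. RAB11FIP4 was at 210.6 CPM (209 to 213) in DMSO, 9.22 CPM (8.83 to 9.61) in RAC1i and 8.55 CPM (8.16 to 8.95) in Combo.

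The share of the DMSO level that remained under RAC1i was 3.43% (3.13 to 3.75) for LMO3, 3.55% (3.30 to 3.8) for TMEM100, 3.59% (3.30 to 3.89) for TSHR and 4.38% (4.19 to 4.57) for RAB11FIP4. The log2 ratios of RAC1i over DMSO were -4.87, -4.82, -4.80 and -4.51 in the same order, and those of Combo over DMSO were -5.21, -5.35, -5.09 and -4.62. These comparisons share the DMSO library, and the choice of the genes used the first of them. Of the 8778 genes that reached 10 CPM in 1 or both libraries, 24.6% were over 2-fold lower and 13.1% over 2-fold higher in RAC1i than in DMSO, with a median log2 ratio of -0.20. In Combo over DMSO, 22.8% of 8745 genes were over 2-fold lower and 11.8% over 2-fold higher, with a median of -0.18. Adding EZH2i moved few genes past this fold (0.0134% of 7443 genes lower and 0.0269% higher in Combo than in RAC1i), and the 4 genes, which lay under 10 CPM in both, were not tested there. Their Combo levels were 78.9% (68.8 to 90.5) of the RAC1i level for LMO3, 69.1% (61.9 to 77.2) for TMEM100, 81.7% (72.2 to 92.4) for TSHR and 92.7% (87.1 to 98.7) for RAB11FIP4. All 4 ratios lay below 1 beyond counting error, but the spread between replicate cultures was not measured. Without the treated cells that held 3 or 4 of the genes, the log2 ratio of TMEM100 moved from -0.53 to -0.27. The shares of the RAC1i level were then 85.2% (73.0 to 99.4) for LMO3, 82.7% (72.7 to 94.1) for TMEM100, 88.3% (77.4 to 100.6) for TSHR and 96.9% (90.7 to 103.5) for RAB11FIP4, so the intervals of TSHR and RAB11FIP4 included 100%. The cells left out were chosen on these same UMIs. For each gene they carried a larger share of its UMIs in RAC1i than in Combo (TMEM100 33.5% against 19.8%). The ratios therefore moved toward 1 by construction.

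**Figure D1:**
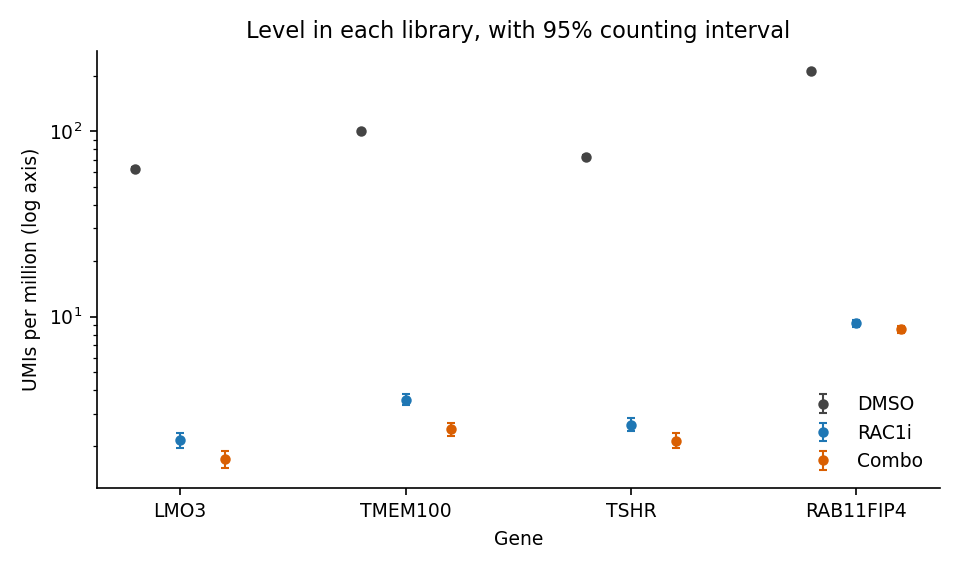
Level of each gene in CPM on a log axis (y) for LMO3, TMEM100, TSHR and RAB11FIP4 (x) in the DMSO, RAC1i and Combo libraries, 1 library each, with 95% counting intervals as bars. DMSO points lie between 62.7 and 210.6 CPM, and every treated point lies below 10 CPM.

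Ranked by the fall from DMSO to RAC1i among 3503 genes with at least 50 CPM, LMO3, TMEM100 and TSHR held ranks 1 to 3 and RAB11FIP4 rank 5. CDH6, which encodes a kidney and ovarian cadherin and is not one of the 4, held rank 4 (571.6 CPM in DMSO, 23.7 in RAC1i and 17.8 in Combo). Just below RAB11FIP4 stood IDH1, the cytosolic isocitrate dehydrogenase, at 147.1, 8.02 and 9.19 CPM. At a lower minimum of 10 CPM, SOX5, a transcription factor, stood above LMO3 with 10.9 CPM in DMSO and 0.328 CPM in RAC1i. LMO3, TMEM100 and TSHR then held ranks 2 to 4 and RAB11FIP4 rank 7 among 8778 genes.

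Most treated cells held no UMI of a given gene. Without correction for depth, LMO3 was seen in 4846 of 7531 DMSO cells (64.3%), in 410 of 10215 RAC1i cells (4.01%) and in 292 of 8239 Combo cells (3.54%). To compare cells at 1 depth, each was thinned at random to 5000 UMIs, which left out 806 DMSO, 1015 RAC1i and 885 Combo cells with fewer. At that depth, LMO3 was seen in 25.8% of DMSO cells (24.8 to 26.9), 1.14% of RAC1i cells (0.934 to 1.38) and 0.870% of Combo cells (0.671 to 1.11). TMEM100 was seen in 31.7%, 1.41% and 1.01% of cells, and TSHR in 27.1%, 1.38% and 1.09%. RAB11FIP4 was seen in 56.8% of DMSO cells (55.6 to 58.0), 4.48% of RAC1i cells (4.06 to 4.92) and 4.12% of Combo cells (3.68 to 4.60). The culture holds 1 cell line, so no cell type that lacks these genes was there to measure how many such UMIs free RNA in the droplets gives, and low expression and free RNA cannot be told apart for cells with a single UMI.

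The genes differed in how evenly DMSO cells carried them. TMEM100 was the least even, with a variance 1.69 times the mean in thinned cells against 1.10 for LMO3, 1.37 for TSHR and 1.52 for RAB11FIP4. In unthinned DMSO cells, 1454 cells with 5 or more TMEM100 UMIs held 68.0% of its UMIs, up to 49 in a cell, while 651 such cells held 32.9% of the LMO3 UMIs. Such cells held 50.3% of the TSHR and 84.2% of the RAB11FIP4 UMIs. These shares have the order of the DMSO levels of the 4 genes, so they are not read as evenness. The remaining TMEM100 UMIs were also unevenly spread. In RAC1i, 32 cells with 5 or more TMEM100 UMIs held 29.5% of its UMIs, with up to 27 in a cell, and in Combo 20 cells held 29.96%. For LMO3, by contrast, 344 of the 410 positive RAC1i cells had 1 UMI and the highest cell had 8. For TSHR 483 of 532 positive RAC1i cells had 1 UMI, and for RAB11FIP4 1285 of 1626.

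Depth per cell separated TSHR and RAB11FIP4 from LMO3 and TMEM100 in DMSO. In the 1660 DMSO cells below 10000 UMIs, TSHR was at 29.5 CPM against 75.0 CPM in the 5871 deeper cells (ratio 0.393, 0.346 to 0.444). RAB11FIP4 was at 145.3 against 213.7 CPM (0.680, 0.643 to 0.718). LMO3 stood at 60.9 and 62.8 CPM (0.969, 0.888 to 1.06) and TMEM100 at 101.3 and 100.4 CPM (1.01, 0.942 to 1.08), both ratios with intervals that include 1. The shallow DMSO cells also had a low mitochondrial share, with a median of 0.903% against 6.30% in deeper cells, and its part in the result was not tested.

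In the treated libraries no depth band came near the DMSO level. The bands above 10000 UMIs held most cells (7983 of 10215 in RAC1i and 6437 of 8239 in Combo). Low levels there therefore follow from the low library levels, for which the genes were picked in RAC1i. RAC1i levels over the 5 bands ran from 1.96 to 3.86 CPM for LMO3, 1.84 to 4.09 CPM for TMEM100, 1.93 to 4.01 CPM for TSHR and 8.69 to 17.8 CPM for RAB11FIP4. RAB11FIP4 was highest in the cells below 5000 UMIs, at 17.8 CPM (13.6 to 22.9) in RAC1i and 16.0 CPM (11.8 to 21.3) in Combo. TMEM100 went the other way, with 1.98 CPM below and 3.65 CPM above 10000 UMIs in RAC1i (ratio 0.543, 0.349 to 0.808) and 0.935 and 2.53 CPM in Combo (0.369, 0.168 to 0.706). The mitochondrial share also moved opposite to DMSO here, with medians of 3.95% in shallow and 1.44% in deeper RAC1i cells.

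**Figure D2:**
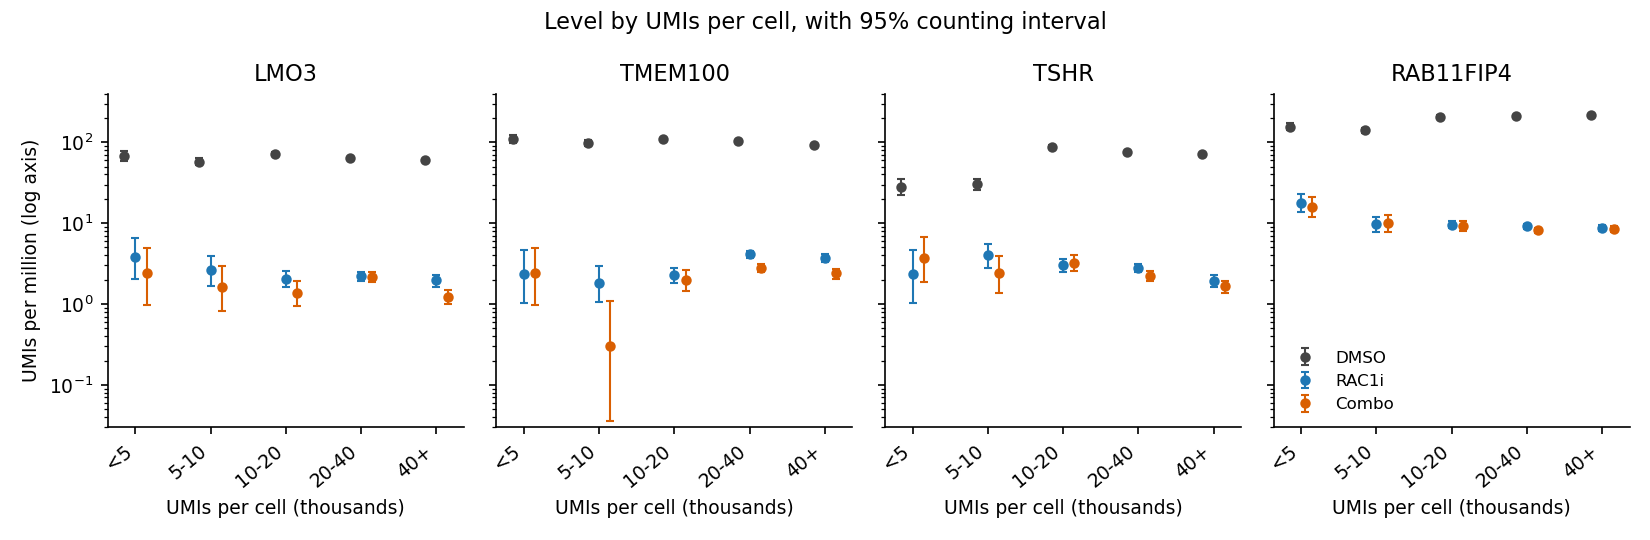
Level of each gene in CPM on a log axis (y) in cells grouped by total UMIs (x), 1 panel per gene, for the DMSO, RAC1i and Combo libraries, with 95% counting intervals as bars. In DMSO, TSHR rises from 27.9 CPM below 5000 UMIs to 86.9 CPM at 10000 to 20000 UMIs, while LMO3 stays between 57.6 and 71.1 CPM.

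All 4 genes were higher in cells with 4% to 20% mitochondrial UMIs than in cells with under 1%, in each library and at matched depth. Among RAC1i cells of 20000 to 40000 UMIs, 1142 cells with under 1% mitochondrial UMIs were set beside 173 cells with 4% to 20%. LMO3 was at 1.23 CPM (0.886 to 1.67) in the former and 11.8 CPM (8.92 to 15.3) in the latter. TMEM100 was at 1.51 CPM (1.12 to 1.98) and 31.9 CPM (27.0 to 37.4), and TSHR at 2.14 CPM (1.67 to 2.70) and 13.5 CPM (10.4 to 17.2). RAB11FIP4 was at 6.41 CPM (5.58 to 7.34) and 36.3 CPM (31.1 to 42.1). Thus at this depth the RAC1i cells with the most mitochondrial UMIs kept several times more of each transcript than those with the fewest, and still less than DMSO cells of the same share, in which TMEM100 was at 108.7 CPM and LMO3 at 64.7 CPM. Combo differed in the same direction for each gene, TMEM100 being at 0.673 CPM in 1035 cells below 1% and 15.6 CPM in 82 cells with 4% to 20%. In DMSO cells of this depth the step was largest in proportion for TSHR, from 17.1 CPM (9.77 to 27.7) in 37 cells below 1% to 80.5 CPM in 2899 cells with 4% to 20%, and LMO3 went from 41.7 to 64.7 CPM. Over all kept RAC1i cells, of any depth, LMO3 was at 1.28 and 8.16 CPM in cells below 1% and with 4% to 20%, TMEM100 at 1.62 and 16.7 CPM, TSHR at 1.93 and 7.62 CPM and RAB11FIP4 at 6.76 and 26.1 CPM. Between shallow and deep treated cells the order was the other way for TMEM100, the shallow cells having the larger mitochondrial share and the lower TMEM100 level. These bands were set after the data had been seen.

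**Figure D3:**
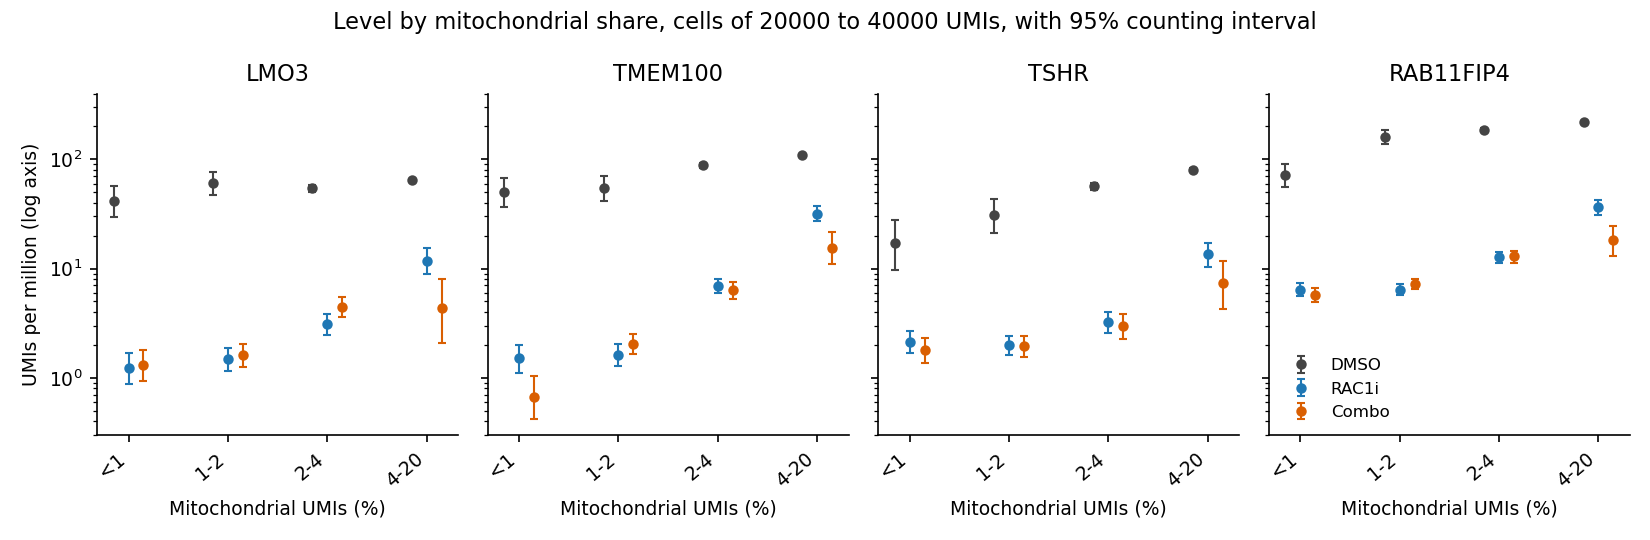
Level of each gene in CPM on a log axis (y) by the mitochondrial share of the cell in percent (x), in cells of 20000 to 40000 UMIs of the DMSO, RAC1i and Combo libraries, with 95% counting intervals as bars. In RAC1i all 4 genes are highest in the 173 cells with 4% to 20% mitochondrial UMIs, where TMEM100 reaches 31.9 CPM.

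By cell cycle class, the genes were a little lower in G2M than in G1 cells of DMSO. Classes came from scores over 43 S and 54 G2/M genes in cells thinned to 5000 UMIs. The G2M class was the largest in each library (3726 of 6725 DMSO, 5972 of 9200 RAC1i and 4886 of 7354 Combo cells) and 17.0% of DMSO and 24.1% of RAC1i cells lay within 0.02 of a score of 0, so the classes are ranges of a score. The proliferation genes MKI67 and TOP2A, which belong to the G2/M list and so define that class, were far apart between classes in DMSO (31.99 and 18.8 CPM in G1, 260.3 and 185.3 CPM in G2M). In the G2M class of the treated libraries they were lower, at 83.0 and 75.5 CPM in RAC1i and 85.5 and 68.4 CPM in Combo. A treated G2M class is therefore not taken as equal to that of DMSO. TMEM100 was at 114.6 CPM in G1, 114.6 in S and 90.6 in G2M (G2M over G1 0.790, 0.766 to 0.815). TSHR was at 83.6, 74.8 and 68.5 CPM (0.820, 0.791 to 0.850), RAB11FIP4 at 225 CPM, 212.6 and 204.4 CPM (0.908, 0.889 to 0.928), and LMO3 at 66.5, 56.6 and 61.9 CPM (0.932, 0.896 to 0.969). The DMSO classes differed by far less than the libraries did, but the genes were picked for a library difference, so nothing is read from this.

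The genes were low in both the G1 and the G2M class of each treated library. These classes held most cells (30.8% and 64.9% in RAC1i, 29.0% and 66.4% in Combo). Low levels there therefore follow from the low library levels, for which the genes were picked in RAC1i. In RAC1i, G1 and G2M cells held LMO3 at 2.46 and 1.94 CPM, TMEM100 at 4.14 and 3.14 CPM, TSHR at 2.97 and 2.38 CPM and RAB11FIP4 at 10.2 and 8.40 CPM. When cells were split instead by their summed S and G2/M UMIs, the direction turned for TMEM100 (top over bottom tertile 1.19 in RAC1i and 1.05 in Combo) and for RAB11FIP4 (1.01 and 1.00), so no order between G1 and G2M is read for these. The small S class stood higher for TMEM100, with 6.91 CPM (5.38 to 8.75) in 396 RAC1i cells and 7.96 CPM (6.30 to 9.92) in 334 Combo cells, against 4.14 and 2.48 CPM in G1. In CPM, TSHR and LMO3 were also highest in the S class of both treated libraries. In RAC1i and Combo S cells, TSHR was at 4.21 and 3.83 CPM and LMO3 at 2.81 and 2.72 CPM. S over G1 lay above 1 beyond counting error for TSHR in Combo (1.59, 1.08 to 2.30) and RAB11FIP4 in RAC1i (1.29, 1.06 to 1.56). The intervals of LMO3 in both libraries, TSHR in RAC1i and RAB11FIP4 in Combo included 1. The share of thinned cells with TMEM100 was not higher in the S class of RAC1i, at 1.01% (0.276 to 2.57, 4 cells) against 1.48% (1.07 to 2.00) in G1, while in Combo it was 3.29% (1.66 to 5.82, 11 cells) against 1.03% (0.647 to 1.56). The share with LMO3 was lowest in S, at 0.505% (2 cells) in RAC1i and 0.299% (1 cell) in Combo, against 1.66% and 0.984% in G1. For RAB11FIP4 it was 5.05% and 2.99% in S against 5.26% and 4.59% in G1. For TSHR it was 2.02% and 1.80% against 1.59% and 1.27%. For these 3 genes the S and G1 intervals overlapped. The S class depended on the scoring. With scores of unthinned cells it shrank to 148 RAC1i and 114 Combo cells, in which TMEM100 was at 18.5 CPM (14.1 to 23.9) and 17.4 CPM (13.1 to 22.8). In those 148 RAC1i cells LMO3 was at 8.80 CPM (5.85 to 12.7), TSHR at 10.7 CPM (7.40 to 14.9) and RAB11FIP4 at 22.6 CPM (17.7 to 28.5), against 2.42, 2.89 and 9.48 CPM in G1. In the same S cells PCNA, a DNA replication clamp that belongs to the S list, was at 86.7 CPM against 10.5 CPM in G1, and CDH6 at 93.6 against 25.5 CPM. The median mitochondrial share was 2.42% in these S cells and 1.56% in G1, and its part was not tested. In the 114 Combo S cells the steps of the other 3 genes were smaller. LMO3 was at 3.95 CPM (2.04 to 6.90) against 2.35 (1.97 to 2.78) in G1. RAB11FIP4 was at 13.5 CPM (9.68 to 18.3) against 9.50 (8.72 to 10.3), and both pairs of intervals overlapped. TSHR was at 6.91 CPM (4.28 to 10.6) against 2.52 (2.13 to 2.97).

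**Figure D4:**
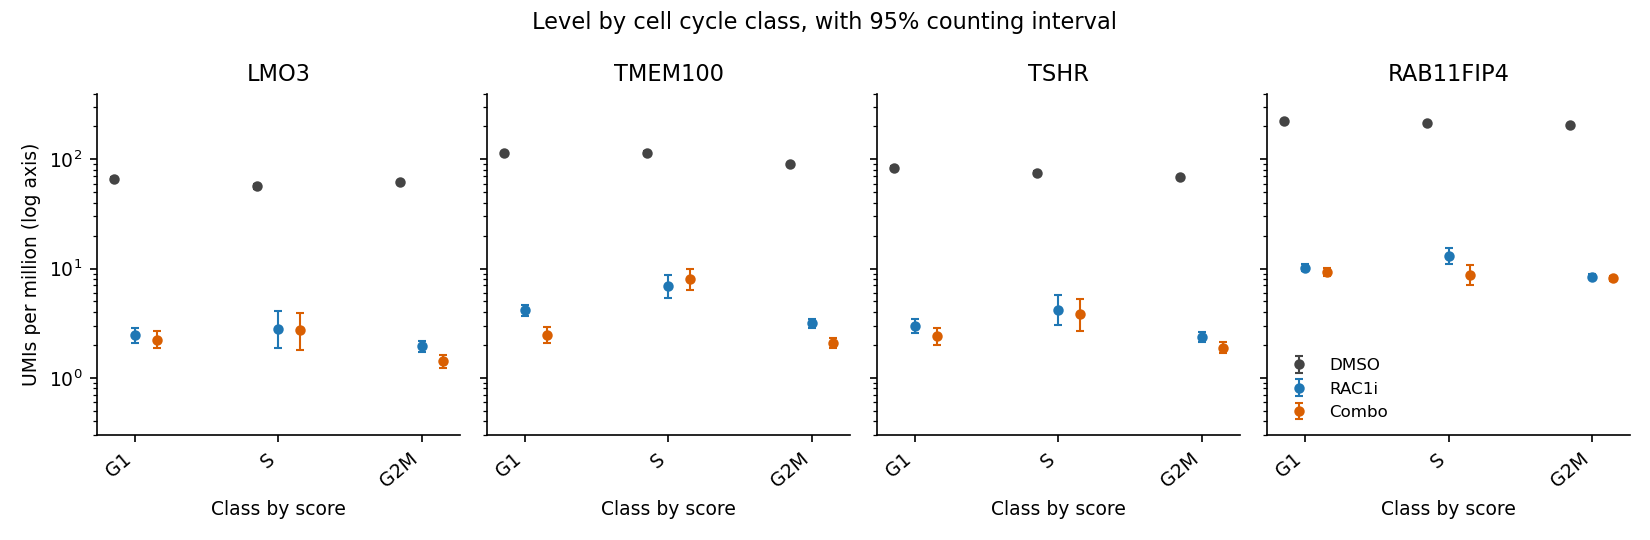
Level of each gene in CPM on a log axis (y) by cell cycle class from scores of thinned cells (x) in the DMSO, RAC1i and Combo libraries, with 95% counting intervals as bars. The DMSO points lie above the treated ones in each class. TMEM100 (6.91 and 7.96 CPM), TSHR and LMO3 are each highest in the S class of both treated libraries. For TSHR and LMO3 the S and G1 bars overlap in both.

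Summed over pairs, treated cells that kept 1 of the genes more often kept another, but single pairs differed. Over the 6 pairs in cells thinned to 5000 UMIs, 61 RAC1i cells with both genes of a pair were counted, summed over pairs, where the separate shares multiply to 20.9, a ratio of 2.91 (2.23 to 3.74). In Combo the sum was 22 against 11.1 (1.98, 1.24 to 2.99), and in DMSO 5163 against 4833 (1.07, 1.04 to 1.10). Since pairs share genes and cells, these intervals are too narrow. A gene seen in many cells leaves little room above independence, and RAB11FIP4 was seen in 56.8% of DMSO and 4.48% of RAC1i cells. The ratios of DMSO and the treated libraries are therefore not compared in size. Correlations between the genes were weak, with r of -0.0066 to 0.0748 in DMSO and -0.0126 to 0.0719 in RAC1i. They also depend on how often a gene is seen, so they are not compared in size either. LMO3, for instance, had a mean of 0.312 UMIs per thinned cell in DMSO and 0.0116 in RAC1i. For LMO3 and TSHR in RAC1i, 0 cells held both where the separate shares give 1.45, too few to show a direction. At 10000 UMIs per cell, TMEM100 was seen in 17.0% (11.5 to 23.7) of the 159 RAC1i cells with LMO3 and in 1.99% (1.70 to 2.33) of those without. In Combo these shares were 12.4% (6.76 to 20.2) of 105 cells and 1.67%. In DMSO, with 2540 LMO3 cells, they were 50.0% (48.0 to 51.9) and 46.0% (44.3 to 47.7). RAB11FIP4 was seen in 24.0% of the 183 RAC1i cells with TMEM100 and 7.74% of those without, and TSHR in 7.65% (4.25 to 12.5) and 2.33% (2.01 to 2.69). In Combo the intervals overlapped for TSHR, seen in 4.20% (1.38 to 9.53) of the 119 cells with TMEM100 and 2.34% (1.98 to 2.75) of those without, and RAB11FIP4 was seen in 15.97% (9.90 to 23.8) and 7.55% (6.91 to 8.23). RAB11FIP4 was seen in 8.50% (4.60 to 14.1) of the 153 Combo cells with TSHR and 7.69% (7.04 to 8.37) of those without, intervals that also overlap. The pair of LMO3 and TMEM100 had the largest ratio to independence of the 6 pairs in both treated libraries at this depth, 7.41 in RAC1i and 6.70 in Combo.

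The number of the 4 genes with a UMI was then counted in unthinned cells of 20000 to 40000 UMIs, a grouping chosen after the data had been seen. In DMSO, 1329 of 3372 cells (39.4%) held all 4 genes and 13 cells (0.386%) held none. In RAC1i, 2722 of 3889 cells (70.0%) held none, 956 held 1, 149 held 2, 58 held 3 and 4 held 4. In Combo, 2325 of 3266 cells (71.2%) held none, 776 held 1, 137 held 2, 27 held 3 and 1 held 4. The level of each gene was higher in cells that held 2 of the other 3 genes than in cells that held none of them. In RAC1i TMEM100 was at 1.68 CPM (1.41 to 1.99) in 2819 cells with none of the others and at 41.6 CPM (35.3 to 48.6) in 128 cells with 2 of them. RAB11FIP4 was at 7.07 CPM (6.54 to 7.63) and 58.9 CPM (49.4 to 69.7) in 3285 and 77 such cells, LMO3 at 1.61 and 13.7 CPM, and TSHR at 2.30 and 13.2 CPM. In Combo the same contrast gave 1.39 and 20.7 CPM for TMEM100, 6.78 and 39.7 CPM for RAB11FIP4, 1.18 and 12.2 CPM for LMO3, and 1.90 and 6.10 CPM for TSHR. In DMSO it gave 66.6 and 105.3 CPM for TMEM100 and 122.7 and 207.5 CPM for RAB11FIP4. With 1 of the others in RAC1i, TMEM100 was at 5.61 CPM (933 cells) and RAB11FIP4 at 13.4 CPM (521 cells). LMO3 was at 2.07 CPM (1.55 to 2.70, 887 cells) and TSHR at 2.57 CPM (1.97 to 3.29, 825 cells). These 2 intervals overlapped those with none of the others (1.34 to 1.91 and 1.98 to 2.65). In Combo this overlap was seen for TSHR only (2.17 to 3.66 and 1.59 to 2.24). With all of the other 3 present, few cells remained, and of the 4 genes RAB11FIP4 alone was higher in RAC1i than with 2 of the others. In RAC1i LMO3 was at 7.91 CPM (24 cells), TSHR at 8.81 CPM (35 cells), TMEM100 at 38.6 CPM (9 cells) and RAB11FIP4 at 78.7 CPM (6 cells). In Combo TSHR was at 1.94 CPM (16 cells), near its level with none of the others, and TMEM100 at 5.30 CPM (6 cells).

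Over all kept cells, 103 RAC1i cells (1.01%) held 3 or 4 of the genes and carried 17.7% of the UMIs of the 4 genes, and 33.5% of those of TMEM100. In Combo 50 cells (0.607%) carried 9.97% of these UMIs. These cells were deeper than those with none of the genes, with medians of 34715 against 18487 UMIs in RAC1i and 36615 against 21659 in Combo, and their median mitochondrial shares were 3.23% against 1.63% and 2.53% against 1.60%. The counts in cells of 20000 to 40000 UMIs, given before, are those at a narrower range of depth. Of the 103 RAC1i barcodes, 0 were also found in the DMSO library, and of the 50 Combo barcodes 1 was. When these cells were left out of the treated libraries, TMEM100 stood at 2.41 CPM (2.21 to 2.62) in RAC1i and 1.99 CPM (1.81 to 2.19) in Combo, a step that lowers the levels by construction.

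Among treated cells with up to 3 of the 4 genes, CDH6, PAX8 and MT2A stood nearer to DMSO the more of the genes were held, but not every context gene followed this order. Levels of CDH6 in RAC1i cells of 20000 to 40000 UMIs were 14.1 CPM (13.3 to 15.0) with none of the genes, 33.9 with 1, 92.9 with 2 and 181.8 CPM (162 to 203) with 3, against 428.8 to 658.8 CPM in DMSO. PAX8, the transcription factor of Müllerian and thyroid lineages, was at 40.8 CPM (39.4 to 42.2), 71.0, 155.2 and 244.3 CPM (222 to 269). MT2A, a metallothionein that was 134.8 CPM in DMSO and 6652 CPM in RAC1i, went the opposite way, from 6098 CPM with none to 2388 CPM with 3. Combo gave the same order, with PAX8 at 37.1 and 251.3 CPM and MT2A at 9689 and 2858 CPM in cells with none and with 3 of the genes. The 4 RAC1i cells with all 4 genes had MT2A at 4370 CPM, out of this order. The median mitochondrial share was 1.30% with none and 3.36% with 3 in RAC1i, and the median depths were 27775 and 28541 UMIs. The chemokine genes CXCL1 and CXCL8 and the proliferation gene MKI67 were out of order in both treated libraries. TOP2A, SOX2, ALDH1A1 and the metallothionein MT1X were out of order in RAC1i only. With none to 3 of the genes in RAC1i, SOX2 was at 12.5, 17.5, 33.9 and 30.4 CPM and ALDH1A1 at 1.94, 2.78, 5.32 and 5.16 CPM. For both, the intervals with 2 and with 3 of the genes overlapped. MT1X was at 1732, 1764, 1301 and 927 CPM. In RAC1i CXCL8 was at 33.9, 26.5, 21.7 and 69.97 CPM with none to 3 of the genes, MKI67 at 56.5, 70.6, 88.9 and 59.6 CPM and TOP2A at 51.1, 57.4, 60.3 and 46.5 CPM. In Combo CXCL1 was at 284.0, 267.8, 243.0 and 342.1 CPM. DMSO cells also differed by the number held. From 1 to 4 of the genes, MT2A went from 239.5 to 110.8 CPM, CXCL1 from 111.4 to 33.4 CPM and CDH6 from 428.8 to 658.8 CPM, while PAX8 lay between 310.5 and 408.2 CPM in all DMSO groups.

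**Figure D5:**
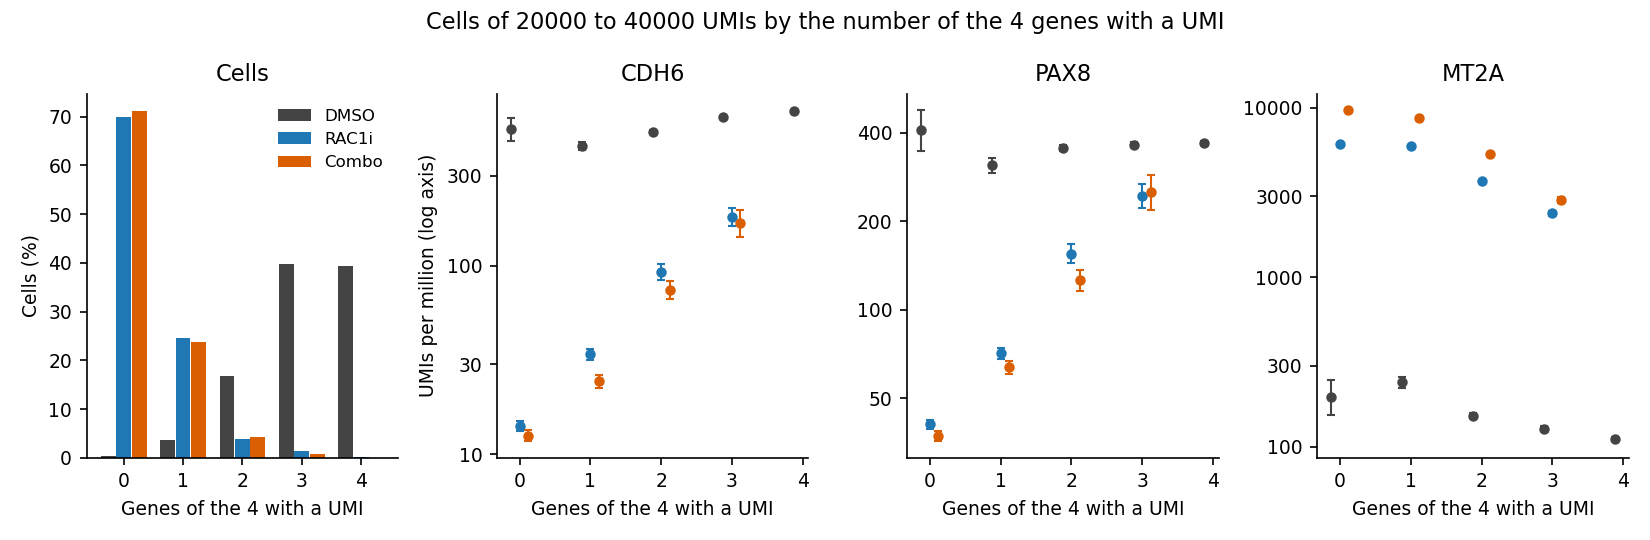
Cells of 20000 to 40000 UMIs by how many of LMO3, TMEM100, TSHR and RAB11FIP4 had a UMI (x), as a percentage of cells (bars) and as the level of CDH6, PAX8 and MT2A in CPM on log axes (points with 95% counting intervals, groups of fewer than 10 cells left out), in the DMSO, RAC1i and Combo libraries. From none to 3 of the genes in RAC1i, CDH6 goes from 14.1 to 181.8 CPM, PAX8 from 40.8 to 244.3 CPM and MT2A from 6098 to 2388 CPM.

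The same contrast held at equal depth for a wider set of genes. In cells thinned to 5000 UMIs, 715 RAC1i cells (7.77%) and 499 Combo cells (6.79%) had a UMI of any of the 4 genes. PAX8 was 2.13 times (1.89 to 2.38) as high in these RAC1i cells as in the other 8485 and 1.94 times (1.67 to 2.24) as high in Combo. ALDH1A1, an aldehyde dehydrogenase used to mark stem-like ovarian cancer cells, was 2.91 times (1.78 to 4.58) as high in RAC1i, a value that fell to 1.44 with cells thinned to 10000 UMIs, and 1.80 times (0.744 to 3.78) as high in Combo, an interval that includes 1. SOX2, a stemness factor, was 1.54 times (1.27 to 1.86) as high in RAC1i. The nuclear RNA NEAT1 was 1.41 times (1.38 to 1.43) as high, and CD24 was 1.43 times as high. WT1 was 1.73 times (1.31 to 2.25) as high in RAC1i and 1.10 times (0.680 to 1.70) in Combo, where the interval includes 1. Several genes that were higher under treatment were lower in the cells with the transcripts. The ratio was 0.663 (0.436 to 0.970) in RAC1i for OVGP1, an oviductal glycoprotein, and 0.636 (0.334 to 1.10) in Combo, where the interval includes 1. In RAC1i it was 0.888 (0.877 to 0.899) for MT2A, 0.838 for GADD45B, a stress response gene, 0.836 for NFKBIA, the NF-kB inhibitor, and 0.826 for ID1, an inhibitor of helix-loop-helix factors. SIRT7, a nuclear sirtuin, was at 0.918 (0.845 to 0.995), and HES1, a repressor downstream of Notch, at 0.959 (0.899 to 1.02), an interval that includes 1. MKI67 was 1.23 times (1.07 to 1.40) as high and TOP2A 1.11 times (0.959 to 1.29). In DMSO, where 81.9% of cells had such a UMI, PAX8 was 1.17 times (1.11 to 1.23) and MECOM, a transcription factor amplified in ovarian cancer, 1.46 times (1.29 to 1.66) as high in them, while CXCL1, a chemokine, was 0.616 (0.547 to 0.695). The contrast was not particular to treated cells for several of the other genes, since in DMSO it was 0.758 (0.709 to 0.812) for MT2A, 0.700 (0.562 to 0.877) for GADD45B, 0.866 (0.799 to 0.939) for NFKBIA and 1.39 (1.37 to 1.40) for NEAT1. The median mitochondrial share of cells with and without was 6.18% and 4.91% in DMSO, 2.11% and 1.49% in RAC1i, and 1.83% and 1.46% in Combo.

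In the lists of LMO partners, BMP, cyclic AMP and Rab11 genes, the shares of lower genes lay near or below the 24.6% of all genes. Of 18 partners of LMO proteins, 10 reached 10 CPM, of which 2 were over 2-fold lower and 2 over 2-fold higher in RAC1i than in DMSO (median log2 ratio -0.32, against -0.20 over all genes tested). The single-stranded DNA-binding cofactor SSBP4 was lower (30.5 CPM in DMSO and 7.04 in RAC1i), as was TCF4 (21.4 and 10.5), an E protein that was over 2-fold lower by a small margin. GATA2, a hematopoietic and endometrial transcription factor, rose from 9.23 to 250.6 CPM and the cofactor SSBP2 from 5.80 to 12.7 CPM. LMO4, the LIM-only relative with the highest level, was at 99.8 and 63.0 CPM.

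Around TMEM100, the BMP list stood higher, with 3 of 15 genes over 2-fold lower and 8 over 2-fold higher (median log2 ratio 1.05). Those that were higher were the inhibitory SMAD6 and SMAD7, the targets ID1 to ID4, the signal transducer SMAD9 and the receptor ACVR2A, against a background of 13.1% of all genes. SMAD9 went from 1.80 CPM in DMSO to 15.0 CPM in RAC1i and ID2 from 73.8 to 600.6 CPM. The ligand BMP7 went from 353.5 to 79.1 CPM and the receptor ACVR2B from 12.6 to 2.52 CPM. The upstream receptor ALK1 (ACVRL1) had at most 0.0251 CPM in any library and its ligand GDF2 had no UMI. Since the ID genes of this list were already known to be raised in these libraries when the list was written, its count is no independent support.

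Around TSHR, 4 of 15 genes of the cyclic AMP pathway were over 2-fold lower and 1 was over 2-fold higher (median log2 ratio -0.37). The related leucine-rich repeat receptor LGR4 went from 73.5 to 12.95 CPM and the adaptor ARRB2 from 23.0 to 6.92 CPM. NR4A1, a nuclear receptor induced by cyclic AMP, went from 4.70 to 11.2 CPM, and GNAQ, a G protein subunit that did not pass 2-fold, was at 30.7 and 49.3 CPM. The stimulatory G protein subunit GNAS, through which TSHR signals, was at 982.7 and 962.8 CPM. The hormone subunit genes TSHB and CGA had at most 0.102 CPM. Of the thyroid lineage genes, 2 reached 10 CPM, of which 1 was over 2-fold lower and 1 over 2-fold higher in RAC1i (median log2 ratio -0.84), PAX8 (355.1 CPM in DMSO, 54.3 in RAC1i and 47.8 in Combo) and GLIS3, a zinc finger factor (11.3, 23.2 and 16.6 CPM), while thyroglobulin (TG) was at 0.0100 CPM in DMSO.

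Around RAB11FIP4, 3 of 22 genes of Rab11 recycling were over 2-fold lower, 1 was over 2-fold higher and 18 were neither (median log2 ratio 0.00290). Its relative RAB11FIP2 went from 83.8 to 33.7 CPM, and EHD3, an ATPase of recycling endosomes, from 14.0 to 4.90 CPM. The GTPase ARF6 rose from 49.0 to 129.7 CPM, and RAB10, which did not pass 2-fold, was at 117.8 and 192 CPM. RAB11A, the GTPase that RAB11FIP4 binds, was at 99.6 CPM in DMSO, then 126.6 in RAC1i and 125.2 in Combo. In Combo over DMSO, where 22.8% of all genes were over 2-fold lower and 11.8% over 2-fold higher, the lists had 2 lower and 2 higher of 10 for LMO partners, 3 and 7 of 15 for BMP, 3 and 1 of 15 for cyclic AMP, and 3 and 1 of 22 for Rab11. In Combo over RAC1i no gene of the lists passed 2-fold.

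Of the 3 nearest annotated genes on each side of each gene, 5 reached 10 CPM, and 4 of these (MGST1, CEP128, MMD and PCTP) were over 2-fold lower in RAC1i than in DMSO, against 24.6% of all genes. MGST1, a microsomal glutathione transferase on the plus strand that overlaps LMO3, was at 291.1 CPM in DMSO and 137.6 in RAC1i. Its log2 ratio of -1.08 passed 2-fold by a small margin. CEP128, a centriole gene on the minus strand that overlaps TSHR, was at 15.0 and 2.37 CPM, a log2 ratio of -2.66. On the side of TSHR away from CEP128, the general transcription factor gene GTF2A1 was at 34.6 and 18.7 CPM. On the 2 sides of TMEM100, MMD lay 297703 bases away and PCTP 18930 bases away. They were at 30.5 and 28.5 CPM in DMSO and at 8.14 and 8.87 CPM in RAC1i. None of the 3 nearest genes on either side of RAB11FIP4 reached 10 CPM.

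By distance over the log2 ratios to DMSO of RAC1i and Combo, among 3563 genes with at least 50 CPM in any of 3 libraries, the nearest gene was TSHR for LMO3 (0.132), LMO3 for TMEM100 (0.151) and for TSHR (0.132), and CDH6 for RAB11FIP4 (0.390). These ratios share the DMSO library and were used in the choice. Across 6725 DMSO cells thinned to 5000 UMIs, with cells of 1 culture as points and 2908 genes of at least 50 CPM, correlations were weak and are a description. The highest Pearson r was 0.103 with CP, which encodes ceruloplasmin, for LMO3 and 0.108 with CDH6 for TMEM100. It was 0.210 with NEAT1 for TSHR, followed by the mitochondrial MT-ND3 and MT-ND4, and 0.187 with CLU, which encodes clusterin, for RAB11FIP4, followed by MT-CO2 and MT-ND4. Among themselves the 4 genes had r of -0.0066 to 0.0748 in DMSO, -0.0126 to 0.0719 in RAC1i and -0.0103 to 0.0651 in Combo.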

How the data were processed

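Single cells of OVCAR3 were measured with a 10x Genomics 3′ kit in 3 libraries. The deposited counts, which the authors made with Cell Ranger (v4.0.0, default settings) on GRCh38, give UMIs for each gene in each barcode, without normalization. The limits on cells are those of the methods. Whether genes that overlap a member share its reads (MGST1 with LMO3, CEP128 with TSHR) was not tested.

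UMIs were summed over cells and given as CPM. Intervals at 95% are exact Poisson (levels), exact conditional (ratios) and Clopper-Pearson (shares), for counting error only. Cell cycle classes came from scanpy (v1.11.5) with the gene lists of Seurat. GENCODE 44 held 36366 of 36601 identifiers. Scaling alternatives used edgeR (v4.0.16) and DESeq2 (v1.42.0). Calculations were tested on simulated data. Genes named are the 4 members, context genes, extremes of each list, annotation neighbours, neighbours in rank and nearest patterns. LMO4, ACVRL1, GDF2, TSHB, CGA, GNAS, RAB11A, PCNA and SOX5 lie outside this rule and were named after their values were seen. The members and all lists were chosen with earlier results of these data known. Some cell type markers are not reported here.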

Additional observations from a re-analysis of the deposited data

How the results depend on the processing

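All log2 ratios of the 4 genes to DMSO kept their sign, from -5.38 to -4.28 in RAC1i and -5.66 to -4.38 in Combo. Values outside the counting interval follow in the order LMO3, TMEM100, TSHR, RAB11FIP4, with only the genes concerned. For RAC1i, averaging CPM over cells gave -4.73, -5.05, -4.52 and -4.28. Leaving out treated cells with 3 or 4 of the genes gave -5.24, -5.38, -5.03 and -4.65, which lowers the numerator by construction. Thinning to 5000 UMIs gave -4.94 for TMEM100, -4.67 for TSHR and -4.40 for RAB11FIP4. DESeq2 size factors gave -4.70 for TMEM100 and -4.40 for RAB11FIP4, and for RAB11FIP4 TMM gave -4.43 and a total without mitochondrial genes -4.58. For Combo, the mean over cells gave -5.54 for TMEM100, -4.72 for TSHR and -4.38 for RAB11FIP4. Leaving out those cells gave -5.47 for LMO3, -5.66 for TMEM100 and -4.70 for RAB11FIP4. Thinning gave -5.03 for LMO3, -5.48 for TMEM100 and -4.52 for RAB11FIP4, for which TMM gave -4.53 and DESeq2 size factors -4.51. The cause of the other shifts was not tested.

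Log2 ratios of the share of cells with a UMI depend on depth. Without thinning they were -4.003, -3.81, -3.52 and -2.40 in RAC1i and -4.18, -4.09, -3.59 and -2.30 in Combo. With at least 2 UMIs they were -6.00, -4.96, -6.45 and -4.40 in RAC1i and -6.15, -5.48, -6.84 and -4.39 in Combo. At 2500 UMIs they were -4.88 for TMEM100 and -4.004 for RAB11FIP4 in RAC1i and -4.30 for RAB11FIP4 in Combo. At 10000 UMIs they were -3.27 for RAB11FIP4 in RAC1i, and -4.27 for TSHR and -3.35 for RAB11FIP4 in Combo.

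With a mitochondrial limit of 10%, the shallow over deep ratio in DMSO was 0.343 for TSHR and 0.620 for RAB11FIP4. Top over bottom tertiles of S and G2/M UMIs in DMSO gave 0.754 for TMEM100, 0.784 for TSHR and 0.836 for RAB11FIP4, and scores of unthinned cells gave 0.876 for RAB11FIP4 (G2M over G1). The tertiles turned the direction for TMEM100 and RAB11FIP4 in RAC1i (1.19 and 1.01) and Combo (1.05 and 1.00), and unthinned scores turned S over G1 for RAB11FIP4 in Combo, to 1.42. The ratio of pairs to independence was 1.04 at 10000 UMIs and 1.01 in cells of 20000 to 40000 UMIs in DMSO, and 1.98 in the latter in RAC1i. At 10000 UMIs the contrast of cells with and without a UMI turned for SIRT7 (0.998) and HES1 (0.871) in DMSO and for CXCL1 in Combo (1.02), and ALDH1A1 in RAC1i moved to 1.44. Of Combo over RAC1i, TMEM100 moved to -0.27 and RAB11FIP4 stood at -0.045 on the log2 scale without cells holding 3 or 4 of the genes. These cells carried a larger share of the RAC1i than of the Combo UMIs, so this shift arises by construction.

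Counts past 2-fold at 50 CPM were 613 lower and 566 higher of 3503 genes in RAC1i and 552 and 491 in Combo over DMSO. With 3 UMIs as the minimum they were 6908 and 7763, and 6800 and 7187, since more genes were counted. At that minimum the lists in RAC1i over DMSO had 3 lower and 9 higher genes for LMO partners and 6 and 12 for BMP. They had 10 and 2 for cyclic AMP, 5 and 6 for thyroid lineage and 3 and 1 for Rab11. TMM at 10 CPM gave 1 lower gene for LMO partners, 3 for cyclic AMP and 2 for Rab11, and 1927 over all genes. The numbers of genes tested at 3 UMIs and with TMM are not given. The list counts there therefore have no share over all genes beside them, and nothing is read from them. Depth limits single-cell statements in the treated libraries to cells with several UMIs. No paired analysis was possible because each group had 1 library.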

Other observations

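Barcodes that the limits on cells removed were also counted. In DMSO, 2540 removed barcodes with 8285672 UMIs held LMO3 at 64.7 CPM (59.3 to 70.4), TMEM100 at 51.1 CPM (46.3 to 56.2), TSHR at 65.4 CPM (60.0 to 71.2) and RAB11FIP4 at 184.1 CPM (175 to 194). TMEM100, TSHR and RAB11FIP4 were thus lower in removed than in kept DMSO barcodes, TMEM100 the most, and LMO3 was not. In RAC1i, 1557 removed barcodes held the 4 genes at 0.955, 1.41, 1.96 and 7.89 CPM in the same order, and in Combo 1518 held them at 0.940, 1.05, 2.17 and 7.01 CPM. None of these levels exceeded that of the kept cells of the same treated library, apart from TSHR in Combo, at 2.17 against 2.14 CPM.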
